A study of Mus musculus with 16 samples.

Results

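The DNA replication machinery is described here as 41 protein-coding genes, chosen by symbol for their known roles, from the helicase and its loaders to the polymerases, the sliding clamp, ligase, nucleotide supply and a pair of S phase control genes. All 41 were found by symbol among the 55536 Ensembl gene identifiers of the count table. Bulk poly(A) RNA-seq was made from 16 mouse samples: MSC (2 K74R, 2 WT), bone marrow (3 K74R, 3 WT) and tumors (3 K74R, 3 WT). MSC is the labels' own abbreviation and is not spelled out there. These libraries held mesenchymal stromal markers and also RNA of macrophage genes, with values given after the MSC results. The mutant animals carry the genotype label KLF K74R, although their sample titles say KO, and the WT animals are labelled KLF WT. Which KLF gene holds the substitution is not given in the labels, and a substitution need not change a count, so no count here checks the genotype. The tumors were grown from MC38 (mouse colon adenocarcinoma cells) and measured at most 1000 mm3. The genotype is that of the host mouse, so a tumor library mixes RNA of MC38 cells with RNA of host cells. The strain, age and sex of the mice and the way the MSC were cultured are not stated in the labels. Nothing in the labels says that samples with different numbers came from different mice, so the p-values reflect only how far these samples spread, and that spread may be technical.

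Before a cell copies its DNA, the origin recognition complex, Cdc6 and Cdt1 load the Mcm2 to Mcm7 helicase ring onto origins. In S phase Cdc45 and the GINS complex join the ring to form the active helicase, called CMG, and polymerase alpha with primase starts each strand, polymerase epsilon extends the leading strand and polymerase delta the lagging strand. Many of these genes are transcribed as cells pass from G1 into S phase, under E2F transcription factors, so their RNA is high in dividing bone marrow progenitors and tumor cells and low in resting cells.

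The RefSeq promoter table (GRCm38.p6) held a start for 34 of the 41 genes, in 39 windows. The 250 bases before each start were searched on both strands for 3 forms of the E2F site, TTTGGCGC, TTTCGCGC and TTTCCCGC. At least 1 of them was present in 9 genes (Cdc6, Dtl, Gins3, Mcm5, Mcm6, Mcm7, Orc1, Pola1 and Rfc3), while 1.53% of all 32851 windows held any. TTTGGCGC was found in 0.417% of all windows and in 4 of the genes, TTTCGCGC in 0.256% and 4 genes, and TTTCCCGC in 0.895% and 3 genes. Of the 16 genes with a window that passed the MSC test below, 4 held a match, and of the 18 that did not, 5 did. The windows printed here are those of Mcm5, Mcm6, Dtl and Pola1, which hold the TTTGGCGC form, and that of Mcm10, the gene with the largest MSC fold, in which none of the 3 forms occurs. Capitals mark the matches on either strand. TTTGGCGC and TTTCGCGC overlap on opposite strands in TTTCGCGCCAAA (Mcm5, starting 153 bases before the start) and TTTGGCGCGAAA (Mcm6, 110 bases before it).
Mcm5 chr8:75109259-75109508 (plus strand): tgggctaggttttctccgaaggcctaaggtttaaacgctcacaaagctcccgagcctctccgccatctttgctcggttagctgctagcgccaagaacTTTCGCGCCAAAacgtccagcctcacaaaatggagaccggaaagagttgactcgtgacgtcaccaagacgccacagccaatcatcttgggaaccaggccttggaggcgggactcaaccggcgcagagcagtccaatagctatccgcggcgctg
Mcm6 chr1:128359706-128359955 (minus strand): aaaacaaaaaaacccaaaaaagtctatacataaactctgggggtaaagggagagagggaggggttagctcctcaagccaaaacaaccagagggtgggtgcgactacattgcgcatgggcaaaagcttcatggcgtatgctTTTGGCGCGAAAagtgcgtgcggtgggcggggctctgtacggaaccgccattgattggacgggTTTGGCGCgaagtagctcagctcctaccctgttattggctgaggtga
Dtl chr1:191575545-191575794 (minus strand): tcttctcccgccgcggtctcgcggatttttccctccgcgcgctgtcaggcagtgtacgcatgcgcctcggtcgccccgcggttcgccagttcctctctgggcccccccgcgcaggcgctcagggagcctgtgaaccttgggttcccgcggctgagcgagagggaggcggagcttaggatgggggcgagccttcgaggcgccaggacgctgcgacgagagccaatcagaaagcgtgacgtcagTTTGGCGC
Pola1 chrX:93632156-93632405 (minus strand): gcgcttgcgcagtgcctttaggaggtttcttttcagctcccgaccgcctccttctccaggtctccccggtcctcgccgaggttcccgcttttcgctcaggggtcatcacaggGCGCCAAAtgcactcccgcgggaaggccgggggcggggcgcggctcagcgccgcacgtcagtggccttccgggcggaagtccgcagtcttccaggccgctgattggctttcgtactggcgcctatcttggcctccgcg
Mcm10 chr2:5012792-5013041 (minus strand): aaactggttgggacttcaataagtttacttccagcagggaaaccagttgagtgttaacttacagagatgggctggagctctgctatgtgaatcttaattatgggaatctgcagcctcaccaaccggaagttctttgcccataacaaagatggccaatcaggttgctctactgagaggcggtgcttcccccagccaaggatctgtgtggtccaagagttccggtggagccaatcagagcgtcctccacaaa
Mcm6 holds a further TTTGGCGC 47 bases before its start, Dtl has its match in the last 8 bases, and Pola1 has it on the opposite strand, 138 bases before the start. A match is a string of letters and not evidence of binding.

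In MSC, replication genes of every role lay higher in K74R libraries than in WT libraries, and every role except RPA held a gene past the threshold given next. With edgeR's quasi-likelihood test, 19 of the 41 rose and 0 fell at an adjusted p under 0.05, while 2.05% of the 14475 genes tested rose and 1.29% fell. All 41 had a positive log2 fold change, which 50.1% of all tested genes had, and 38 were higher at an unadjusted p under 0.05, against 13.5% of all genes. Both K74R libraries lay above both WT libraries for 40 of 41 genes, the exception being Rfc1, and the same was true of 30% of all genes. The median log2 fold change was 1.24, a fold of 2.37, with a range of 0.28 (Gins4) to 2.77 (Mcm10), and the median over all tested genes was 0.00. Summed over the 41 genes, the level was 1972 and 1813 CPM in the K74R libraries, against 867 and 793 CPM in the WT libraries. CPM here are counts divided by the library total after scaling by trimmed mean of M-values (TMM). In bulk samples, fewer cells of a type and less RNA per cell cannot be told apart. The calls rest on few libraries: without K74R library 1 none of 15191 genes passed and 0 members were called (31 higher at an unadjusted p under 0.05, median log2 fold change 1.23), and the count was 13 without K74R library 2, 11 without WT library 1 and 6 without WT library 2. DESeq2 called 31 of the 41 and limma-voom 18, against 1909 and 406 of all 14475 genes in either direction.

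**Figure D1:**
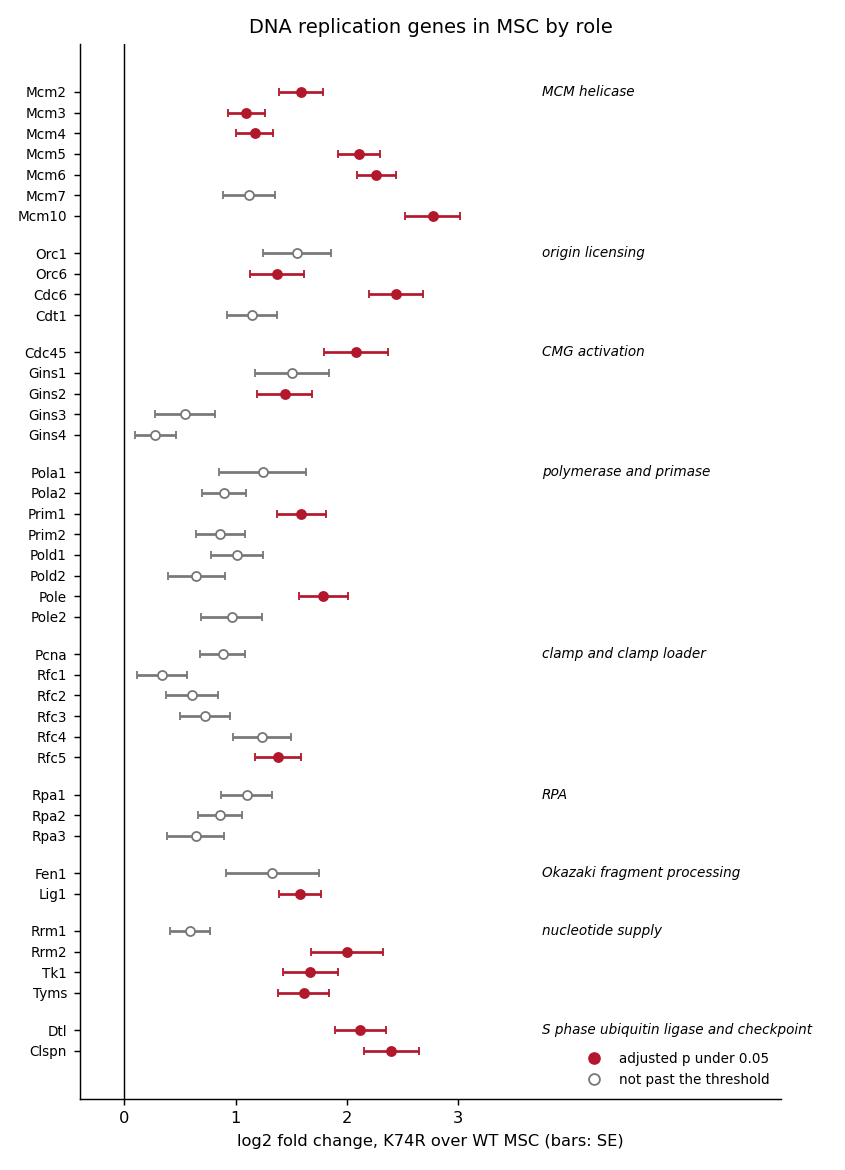
Log2 fold change of each of the 41 genes in MSC, K74R over WT, with its standard error as a bar, grouped by role; filled points passed an adjusted p of 0.05. All points lie right of 0, from Gins4 at 0.28 to Mcm10 at 2.77, and 19 are filled.

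The helicase was the group with the most calls, 6 of 7 genes. Mcm6, a subunit of the ring, measured 145 and 148 CPM in K74R MSC, against 31.7 and 29.2 CPM in WT MSC. Its libraries lay tightly within each genotype and far apart between them, a log2 fold change of 2.26 (SE 0.17, adjusted p = 0.0196 by edgeR). Mcm10, which binds the assembled helicase and is needed to fire it, had 21.4 and 25.2 CPM in K74R MSC, against 3.70 and 3.13 CPM in WT MSC. It showed the largest fold of the 41, 6.81 (log2 2.77, SE 0.25, adjusted p = 0.0196). Mcm5 stood at 76.9 and 72.3 CPM in K74R MSC, against 18.7 and 15.9 CPM in WT MSC (log2 2.11, SE 0.19, adjusted p = 0.0196). The other 3 called subunits had smaller fold values. Mcm2 had 64.3 and 54.3 CPM in K74R MSC, against 18.4 and 21.1 CPM in WT MSC (log2 1.59, SE 0.20, adjusted p = 0.0289). Mcm4 had 92.6 and 87.3 CPM in K74R MSC, against 41.5 and 38.5 CPM in WT MSC (log2 1.17, SE 0.17, adjusted p = 0.0341). In Mcm3 the replicates nearly coincided, at 75.6 and 75.4 CPM in K74R MSC, against 35.4 and 35.2 CPM in WT MSC (log2 1.10, SE 0.17, adjusted p = 0.0361). Mcm7, whose exons overlap those of Cops6 and Ap4m1 on the other strand, did not pass, with 73.0 and 57.5 CPM in K74R MSC, against 34.3 and 25.9 CPM in WT MSC (log2 1.12, SE 0.23, adjusted p = 0.0603). None of the 7 had overlapping genotypes, while 30% of all genes tested had both K74R libraries above both WT libraries.

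Among the loaders, Cdc6 and Orc6 passed. Cdc6, the ATPase that brings the ring to the origin, measured 20.2 and 17.5 CPM in K74R MSC, against 3.41 and 3.51 CPM in WT MSC. This is a log2 fold change of 2.44 (SE 0.24, adjusted p = 0.0196), with the genotypes well apart. Orc6, the smallest origin recognition subunit, had 27.1 and 22.1 CPM in K74R MSC, against 10.7 and 8.27 CPM in WT MSC (log2 1.37, SE 0.24, adjusted p = 0.0489). Orc1 (log2 1.55, adjusted p = 0.0561) and Cdt1, the loading partner of Cdc6 (log2 1.15, adjusted p = 0.0561), were just short of the threshold.

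Of the CMG partners, Cdc45 and Gins2 rose, and the other GINS genes did not pass. Cdc45 had 18.9 and 14.01 CPM in K74R MSC, against 4.33 and 3.45 CPM in WT MSC (log2 2.08, SE 0.29, adjusted p = 0.0322). Gins2 had 16.1 and 16.8 CPM in K74R MSC, against 6.82 and 5.33 CPM in WT MSC (log2 1.44, SE 0.25, adjusted p = 0.0461). Gins1 did not pass, at a log2 fold change of 1.51 (SE 0.33, adjusted p = 0.0648). At the low end of the whole set stood Gins3 (log2 0.55, SE 0.27, adjusted p = 0.264) and Gins4 (22.7 and 22.4 CPM in K74R MSC, against 18.3 and 18.9 CPM in WT MSC, log2 0.28, SE 0.19, adjusted p = 0.394), although the 4 proteins form a single complex. The difference between GINS subunits was not tested.

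Polymerases and primase had 2 calls among 8 genes. Pole, the catalytic subunit of the leading-strand polymerase epsilon, had 28.6 and 26.9 CPM in K74R MSC, against 8.95 and 7.15 CPM in WT MSC (log2 1.79, SE 0.22, adjusted p = 0.0279). Prim1, the primase subunit that makes the RNA primer, had 18.7 and 18.1 CPM in K74R MSC, against 6.18 and 6.02 CPM in WT MSC (log2 1.59, SE 0.22, adjusted p = 0.0319). In both, the genotypes were well separated. The other 6 had log2 fold changes from 0.65 (Pold2) to 1.24 (Pola1) and did not pass. Pola1, the catalytic subunit of polymerase alpha, varied most within WT, with 31.1 and 42.3 CPM in K74R MSC, against 21.1 and 9.84 CPM in WT MSC (adjusted p = 0.127).

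Of the clamp and its loader, Rfc5 alone passed. This loader subunit had 21.6 and 22.1 CPM in K74R MSC, against 8.84 and 7.90 CPM in WT MSC (log2 1.38, SE 0.21, adjusted p = 0.0361). Pcna, the sliding clamp, had 143 and 174 CPM in K74R MSC, against 92.8 and 79.1 CPM in WT MSC, a fold of 1.84 that did not pass (adjusted p = 0.0689). Processed pseudogenes of Pcna and Tyms are annotated, so their values are uncertain. Rfc1, the large loader subunit, was the only member with overlapping libraries, 72.3 and 91.5 CPM in K74R MSC, against 73.9 and 55.7 CPM in WT MSC (log2 0.34, SE 0.23, adjusted p = 0.394).

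None of the 3 subunits of RPA, which coats single-stranded DNA, passed edgeR's test, although all 3 had an unadjusted p under 0.05 and DESeq2 called 2 (limma-voom 0). Rpa1 came closest, with 152 and 104 CPM in K74R MSC, against 60.4 and 59.4 CPM in WT MSC (log2 1.10, SE 0.23, adjusted p = 0.0613). Its K74R libraries differed from each other by much more than its WT libraries did. Lig1, which seals Okazaki fragments, rose, with 60.7 and 55.0 CPM in K74R MSC, against 20.4 and 18.3 CPM in WT MSC (log2 1.58, SE 0.19, adjusted p = 0.0254). Fen1, the flap nuclease of the same step, was counted at 2.90 and 2.83 CPM in K74R MSC, against 1.39 and 0.878 CPM in WT MSC, and did not pass (adjusted p = 0.127). Its exons overlap those of Tmem258 on the other strand.

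Nucleotide supply had 3 calls among 4 genes. Tyms, which makes thymidylate, had 28.8 and 22.6 CPM in K74R MSC, against 8.32 and 8.52 CPM in WT MSC (log2 1.61, SE 0.23, adjusted p = 0.0327). Tk1, the thymidine salvage kinase, had 37.2 and 34.6 CPM in K74R MSC, against 13.3 and 9.21 CPM in WT MSC (log2 1.67, SE 0.25, adjusted p = 0.0361). Of the ribonucleotide reductase subunits, Rrm2 passed and Rrm1 did not, and their difference was not tested. Rrm2, the small subunit, known to peak in S phase, had 202 and 111 CPM in K74R MSC, against 35.3 and 43.2 CPM in WT MSC (log2 2.00, SE 0.32, adjusted p = 0.0407). Rrm1, the large subunit, had 226 and 204 CPM in K74R MSC, against 140.2 and 145 CPM in WT MSC, without passing (log2 0.59, SE 0.18, adjusted p = 0.116).

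Both S phase control genes rose. Clspn, which passes the stalled-fork signal to the checkpoint kinase, had 29.0 and 34.1 CPM in K74R MSC, against 6.82 and 5.14 CPM in WT MSC (log2 2.40, SE 0.25, adjusted p = 0.0196). Dtl, the substrate receptor of the ubiquitin ligase that destroys Cdt1 on chromatin, had 21.1 and 24.7 CPM in K74R MSC, against 5.49 and 5.01 CPM in WT MSC (log2 2.12, SE 0.23, adjusted p = 0.0215). Across 12 alternative fits, Mcm5, Mcm6, Mcm10, Cdc6, Clspn and Dtl passed in 11 each, all but the fit without K74R library 1, where their adjusted p was 0.0933.

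Genes of neighbouring processes rose in MSC with the replication genes. By edgeR 2.05% of all 14475 genes rose and 1.29% fell, to be read beside each count here. Of 28 mitosis genes, 24 rose and 0 fell (median log2 fold change 2.47). Together they reached 1456 and 1863 CPM in K74R MSC, against 399 and 239 CPM in WT MSC. Birc5, the survivin gene, had 38.8 and 34.8 CPM in K74R MSC, against 4.97 and 3.70 CPM in WT MSC (log2 3.08, SE 0.24, adjusted p = 0.0196). Anln, an actin binder of the cleavage furrow (log2 2.21), and Aurka, the spindle pole kinase (log2 2.48), rose as well, each with an adjusted p of 0.0196. Of 41 other replication factors outside the set, 10 rose and 0 fell (median 0.83), and the 3 of smallest p were Uhrf1, which couples DNA methylation to replication (log2 2.45), Wdhd1, a link between helicase and polymerase alpha (log2 1.78), and Chaf1a, a histone chaperone subunit (log2 1.74). Of 27 tested E2F and G1/S control genes, 7 rose and 0 fell (median 0.58), among them the cyclins Ccna2 (log2 2.89) and Ccne2 (log2 2.47) and the repressor E2f7 (log2 2.38). None of 7 CDK inhibitor genes passed edgeR's test, and 3 were higher at an unadjusted p under 0.05, the number DESeq2 called (limma-voom 0). Over all genes, 13.5% were higher by unadjusted p, and DESeq2 called 988 of 14475 higher and 921 lower. Cdkn2c had the smallest p of the 7, with 29.4 and 42.2 CPM in K74R MSC, against 17.3 and 13.7 CPM in WT MSC (log2 1.20, adjusted p = 0.0628).

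Markers of other cell types also moved between the MSC genotypes. Over all 14475 genes tested, 3765 had an unadjusted p under 0.05, 1950 of them higher in K74R. Of the same genes, edgeR called 2.05% higher and 1.29% lower, and DESeq2 called 988 higher and 921 lower. All 12 mesenchymal stromal markers were measured and none passed in MSC alone. By unadjusted p under 0.05, 6 were higher and 2 lower, and DESeq2 called 4 higher and 2 lower (limma-voom 0). Their log2 fold changes ran from -3.79 to 2.26, which a sum does not show. The summed level was 12130 and 16214 CPM in K74R MSC, against 12417 and 13453 CPM in WT MSC. Endothelial markers fell in 4 of 5 cases, and their sum was 13.95 and 22.01 CPM in K74R MSC, against 267 and 1414 CPM in WT MSC. Pecam1, the endothelial adhesion molecule, had 3.39 and 2.77 CPM in K74R MSC, against 97.8 and 523 CPM in WT MSC (log2 -6.65, SE 0.92, adjusted p = 0.0323). Tek and Emcn had log2 fold changes of -6.68 and -6.63 (adjusted p = 0.0327 and 0.0339), while limma-voom, and edgeR without either K74R library, called 0 of the 5. Of 12 hematopoietic markers, 7 were tested and none passed in MSC alone. By unadjusted p under 0.05, 3 were lower, and DESeq2 called 3 lower (limma-voom 0). The 12 summed to 5680 and 8482 CPM in K74R MSC, against 14965 and 12393 CPM in WT MSC. The macrophage gene Lyz2 made up most of this, with 4537 and 6289 CPM in K74R MSC, against 10715 and 9322 CPM in WT MSC, and Csf1r had the smallest p (log2 -1.44, SE 0.40, adjusted p = 0.101). The libraries labelled MSC thus held RNA of blood cells beside stromal RNA, and the WT ones also endothelial RNA. Of the epithelial keratins and adhesion genes, 3 of 6 were tested and Krt7 rose (13.7 and 9.56 CPM in K74R MSC, against 0.635 and 1.25 CPM in WT MSC). The other 2 did not pass: Krt19 had 73.8 and 11.5 CPM in K74R MSC, against 0.520 and 1.44 CPM in WT MSC (log2 5.45, adjusted p = 0.0557), and Krt18 had 0.492 and 0.120 CPM in K74R MSC, against 0.924 and 6.39 CPM in WT MSC (log2 -3.52, adjusted p = 0.127). The part of these markers in the replication gene result was not tested.

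For most replication genes the genotype effect was larger in MSC than in the other tissues. In a model of all 16 libraries, the K74R effect in MSC minus that in bone marrow was positive and past the threshold for 38 of 41 genes (10.8% of 18191 genes tested), with a median of 1.41 on the log2 scale. Gins3, Gins4 and Rfc1 did not pass. Against tumor, 36 of 41 passed (6.48% of all genes), with a median of 1.12, and Gins3, Gins4, Pold2, Rfc1 and Rpa3 did not. Among the 41, the smallest p in both belonged to Mcm6, at 2.47 (SE 0.16, adjusted p = 4.19e-07) against bone marrow and 2.29 (SE 0.16, adjusted p = 7.46e-07) against tumor. The largest difference in both was that of Mcm10, 2.92 against bone marrow and 2.64 against tumor. Both differences use the same MSC libraries, so they are not independent of each other. The model also shares its estimate of the spread across tissues, although MSC replicates differed most. The mean chi-square per gene between replicate counts was 59.7 (K74R) and 52.2 (WT) in MSC, and 6.89 to 19.9 in bone marrow and tumor. The interaction p-values thus rest partly on the tighter bone marrow and tumor libraries and may be too small for MSC. Of the 12 hematopoietic markers, this model called 4 lower against bone marrow (Adgre1, Csf1r, Cd68 and Lyz2) and 0 higher. Against tumor it called 1 lower and 1 higher. Of the 12 mesenchymal stromal markers, 3 were higher and 1 lower against bone marrow. Against tumor 2 were higher and 2 lower, and Thy1 was lower in both. Over all 18191 genes, 1464 were lower against bone marrow and 752 against tumor.

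**Figure D2:**
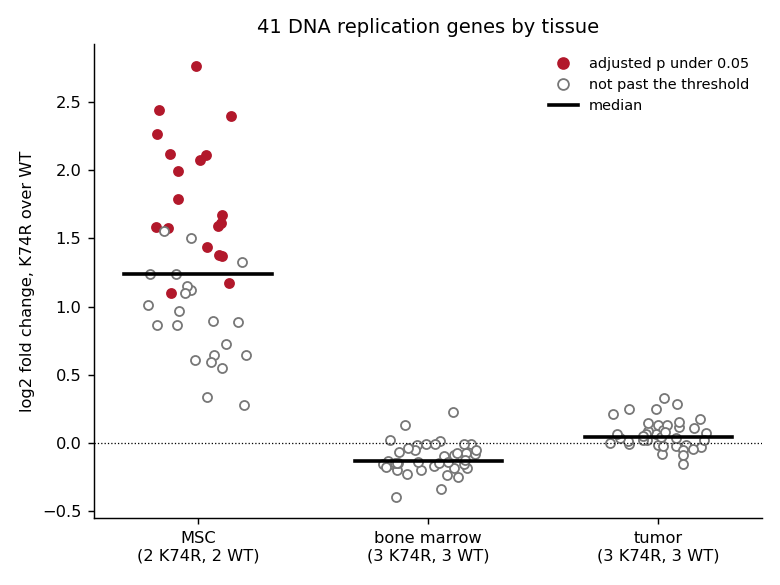
Log2 fold changes, K74R over WT, of the 41 genes in MSC, bone marrow and tumor; each point is a gene, filled points passed an adjusted p of 0.05 and the line is the median. The medians are 1.24 in MSC, -0.13 in bone marrow and 0.05 in tumor.

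In bone marrow no replication gene passed. With edgeR 0 of 41 were called (0.773% of 14872 genes tested were called in either direction), and by unadjusted p under 0.05 the counts were 5 lower and 1 higher, while 7.99% of all genes were lower and 9.8% higher by that rule. DESeq2 called 1 gene lower and limma-voom 0. The median log2 fold change was -0.13, with 37 negative and 4 positive values (49.9% of all genes were positive), from -0.40 (Prim2) to 0.22 (Pold1). Intervals of 2 SE on either side ran from -0.61 at the lowest to 0.39 at the highest. Prim2, the large primase subunit, had 64.5, 55.7 and 48.8 CPM in K74R bone marrow, against 73.4, 68.9 and 80.1 CPM in WT bone marrow. All 3 K74R libraries lay below all 3 WT libraries, and the adjusted p was 0.132 by edgeR and 0.0488 by DESeq2. Gins1, Rfc4, Prim1 and Rpa3 were the other 4 lower at an unadjusted p under 0.05. Pold1, the catalytic subunit of the lagging-strand polymerase, was the only one with all K74R libraries higher, at 83.3, 71.1 and 78.7 CPM in K74R bone marrow, against 66.7, 62.8 and 70.1 CPM in WT bone marrow (adjusted p = 0.216). Over all genes, 11.8% had every K74R bone marrow library above every WT one. Libraries of the genotypes did not overlap for 8 genes that were lower in K74R, against 11.1% of all genes.

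Mcm10, the gene with the largest MSC fold, did not pass in bone marrow. Its level was 99.4, 83.8 and 87.7 CPM in K74R bone marrow, against 105, 91.1 and 100.5 CPM in WT bone marrow (log2 -0.13, SE 0.09, adjusted p = 0.472). Mcm6 had 479, 423 and 390.4 CPM in K74R bone marrow, against 505, 461 and 506 CPM in WT bone marrow (log2 -0.19, SE 0.09, adjusted p = 0.3199). In each case the highest K74R library lay within the WT range. Cdc6, the loader with the largest MSC fold, had 181, 153 and 132 CPM in K74R bone marrow, against 161, 144 and 165 CPM in WT bone marrow (log2 -0.01, SE 0.11).

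In tumors no replication gene passed either. With edgeR 0 of 41 replication genes were called (0.0406% of 14779 genes tested), and by unadjusted p under 0.05 the counts were 4 higher and 0 lower (5.05% of all genes were higher and 6.19% lower), while DESeq2 and limma-voom also called 0. The median log2 fold change was 0.05, with 30 positive and 11 negative values (51.2% of all genes were positive), from -0.15 (Clspn) to 0.33 (Gins3), and intervals of 2 SE ran from -0.32 to 0.55. Pcna had the smallest p, with 295, 284 and 287 CPM in K74R tumors, against 235, 229.9 and 266 CPM in WT tumors (log2 0.25, SE 0.07, adjusted p = 0.342). Orc6, Gins3 and Rpa3 were the other 3, and in these 4 genes, against 8.11% of all genes, every K74R library lay above every WT library. Mcm6 had 299.97, 309.6 and 299 CPM in K74R tumors, against 288, 286 and 338 CPM in WT tumors (log2 0.00, SE 0.08, adjusted p = 0.99). Of the tumor epithelial markers only Cdh1 passed the filter on low counts, at 3.95, 5.32 and 4.49 CPM in K74R tumors, against 4.09, 5.002 and 8.14 CPM in WT tumors. The labelled colon cell type was thus not visible in these markers.

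Across tissues, the values use a joint scaling of the 16 libraries. The 41 genes summed to 2041 ± 116 CPM in K74R MSC and 891 ± 46.8 CPM in WT MSC (SD, n = 2 each). In bone marrow the sum was 6588 ± 620.2 CPM in K74R and 7266 ± 593 CPM in WT (SD, n = 3 each). In tumors it was 4534 ± 88.1 CPM in K74R and 4385 ± 309 CPM in WT (SD, n = 3 each). The K74R MSC libraries thus stayed below every bone marrow and tumor library of either genotype. The mitosis genes summed to 1790.1 ± 315 CPM in K74R MSC and 341 ± 118 CPM in WT MSC (SD, n = 2 each). In tumors their sum was 4218 ± 235 CPM in K74R and 4281 ± 168 CPM in WT, and in bone marrow it was 10969.9 ± 703 CPM in K74R and 11797 ± 1073 CPM in WT (SD, n = 3 each).

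**Figure D3:**
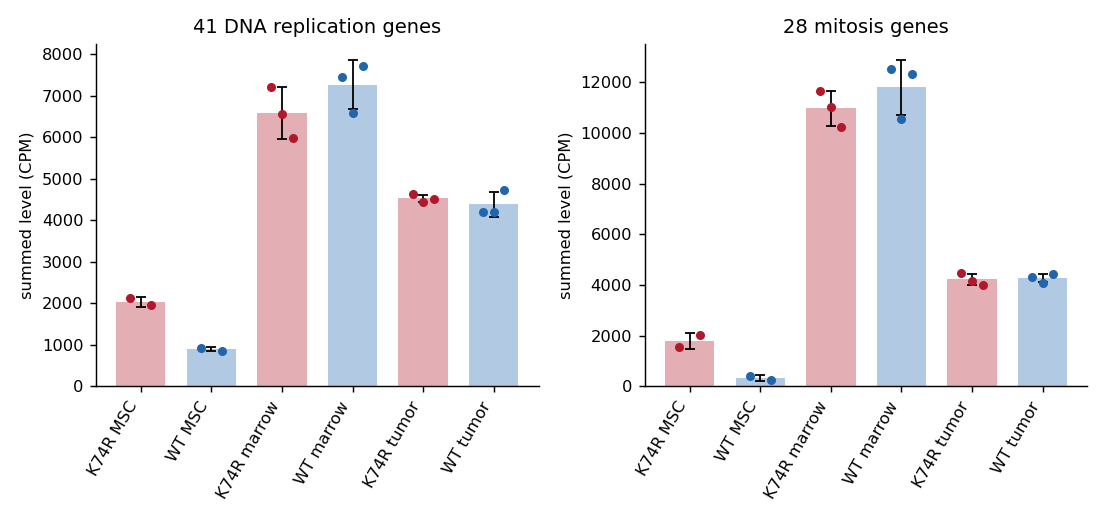
Summed level in CPM of the 41 replication genes (left) and of 28 mitosis genes (right) in each library (points), with the group mean (bar) and SD (error bar). Replication sums run from 857 CPM in a WT MSC library to 7732 CPM in a WT bone marrow library, and K74R MSC libraries (1959 and 2122 CPM) lie between WT MSC and tumors.

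Between the WT tissues, MSC held less of every replication gene than bone marrow. All 41 were lower in WT MSC at an adjusted p under 0.05, while 36% of 18191 genes were lower, with a median log2 fold change of -3.14. The difference was widest for Cdc6 (3.63 and 3.796 CPM in WT MSC, against 167, 147 and 171 CPM in WT bone marrow, log2 -5.44) and narrowest for Pold2 (11.4 and 13.1 CPM in WT MSC, against 27.97, 25.3 and 31.9 CPM in WT bone marrow, log2 -1.22). Clspn (log2 -4.96) and Dtl (log2 -4.87) stood near Cdc6 and Gins4 (log2 -1.29) near Pold2. WT tumors were closer to WT bone marrow, with a median of -0.60. There, 29 genes were lower (36.2% of all genes) and 5 were higher (36.5%), while Orc6, Cdt1, Gins4, Pola1, Pola2, Pole and Rpa3 did not pass. Cdc6 again had the widest difference, with 48.2, 42.9 and 52.8 CPM in WT tumors (log2 -1.75). The 5 higher ones were Rfc3, Rfc1, Rfc5, Gins2 and Pold2. Rfc3, a clamp loader subunit, had 67.8, 68.8 and 79.7 CPM in WT tumors, against 38.1, 36.3 and 39.1 CPM in WT bone marrow (log2 0.93, SE 0.09, adjusted p = 1.25e-07). Both tissue comparisons use the same WT bone marrow libraries.

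**Figure D4:**
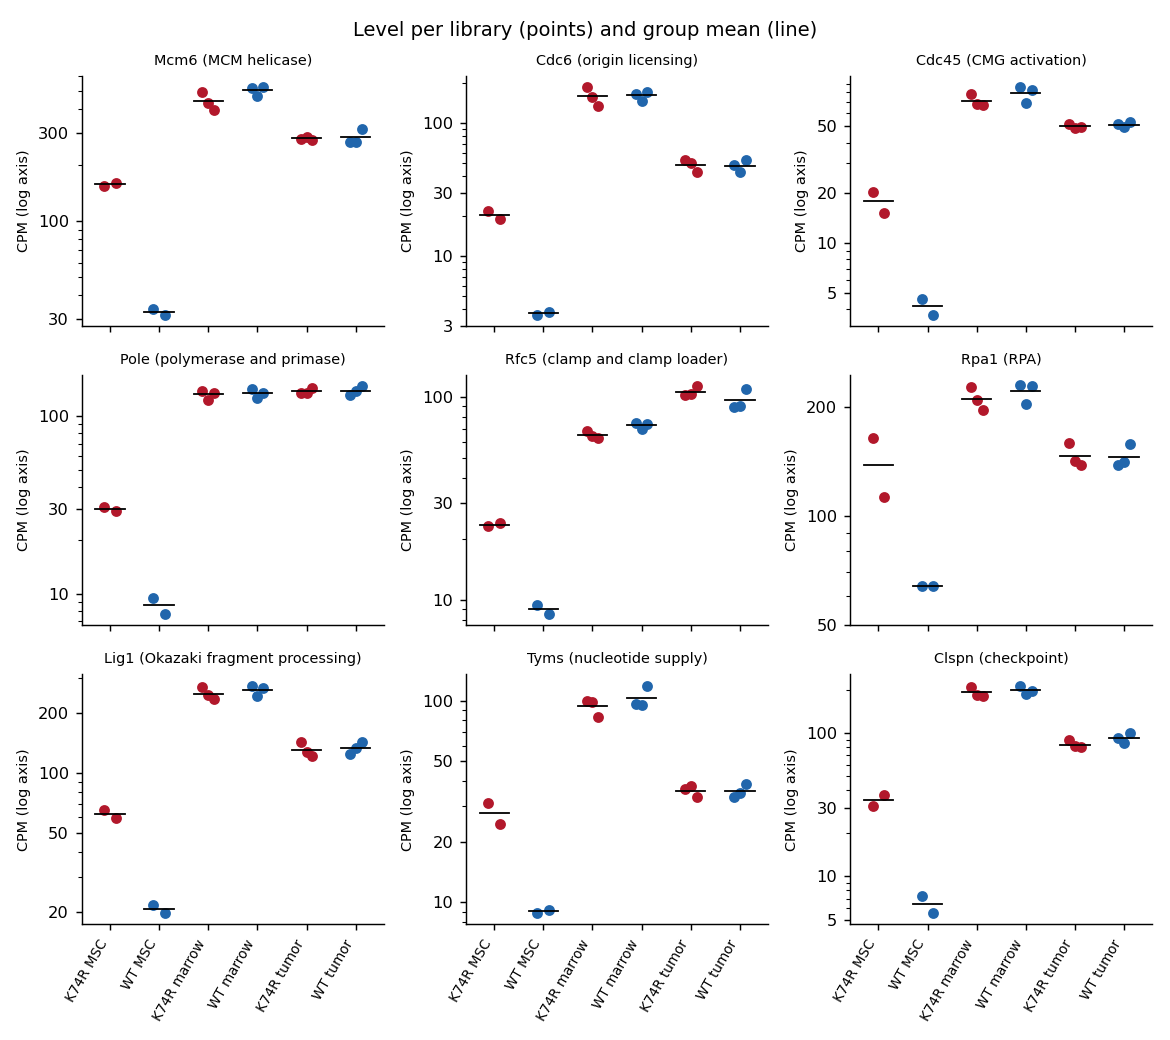
Level in CPM (log axis) of a gene from each role in all 16 libraries (points) with the group mean (line), K74R in red and WT in blue. For Mcm6 the MSC means are 158 CPM in K74R and 32.7 CPM in WT, below the bone marrow means of 441 and 507 CPM and the tumor means of 279 and 282 CPM.

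Levels of different genes can be set side by side only per length, here as CPM per kb of exon. The length is that of all annotated exons of a gene merged, which can exceed that of the transcript expressed. It was 6956 bases for Mcm2 and 3589 (Mcm4) to 4666 (Mcm6) bases for the other subunits, so their order depends on it. The ring holds its 6 subunits in equal number, yet their RNA levels by this measure were unequal in every group. In K74R MSC they ran from Mcm2 at 9.19 ± 1.08 to Mcm6 at 33.8 ± 0.644 CPM per kb (SD, n = 2), a ratio of 3.68. In WT MSC the range was from Mcm2 at 3.05 ± 0.333 to Mcm4 at 11.95 ± 0.504 CPM per kb (SD, n = 2), a ratio of 3.92. Mcm6 was thus the most abundant subunit in K74R MSC and stood below Mcm3 (10.1 ± 0.0710), Mcm4 and Mcm7 (7.28 ± 1.36 CPM per kb) in WT MSC, the last of these within its spread. In bone marrow the ratio of highest to lowest was 2.16 in K74R and 2.30 in WT, and in tumors it was 2.19 in K74R and 2.22 in WT. Mcm6 led in bone marrow, at 94.4 ± 10.3 CPM per kb in K74R and 109 ± 6.40 CPM per kb in WT (SD, n = 3 each), and Mcm3 led in tumors, at 67.0 ± 3.46 CPM per kb in K74R and 62.6 ± 3.94 CPM per kb in WT. Mcm2 was lowest in every group by this measure. In CPM not divided by length, it stood above Mcm4 in WT bone marrow (means of 329 and 314 CPM). Among all 41 genes Pcna had the highest level per kb in MSC and bone marrow of both genotypes and in K74R tumors, and Rrm2 in WT tumors. Fen1 was lowest in every group but WT MSC, where Dtl was (0.411 ± 0.0218, n = 2). Both places are uncertain: Fen1 exons overlap those of Tmem258 on the other strand, and Dtl has the longest merged exons of the 41 (13709 bases).

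**Figure D5:**
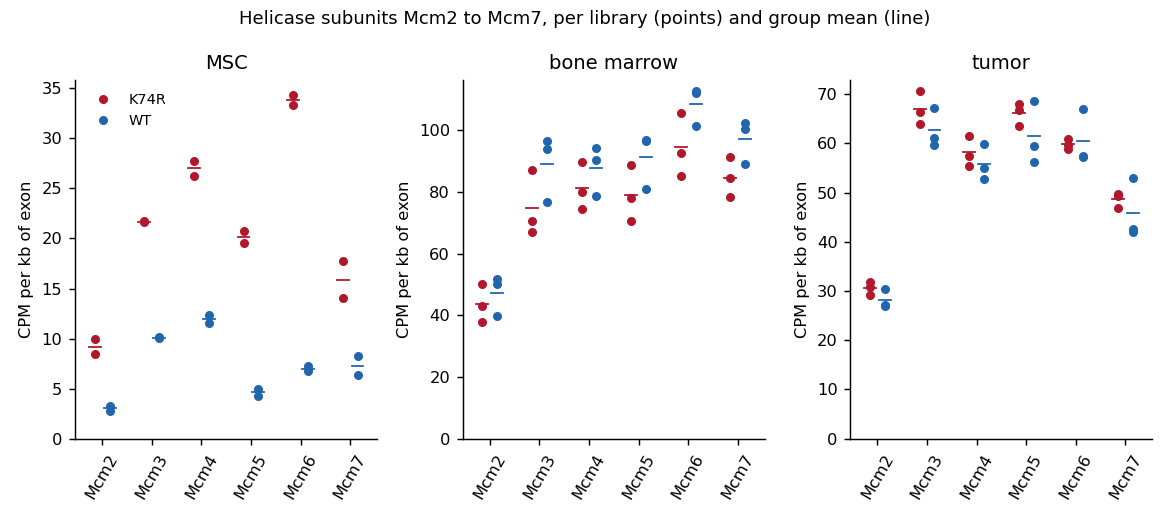
CPM per kb of exon of the helicase subunits Mcm2 to Mcm7 in MSC, bone marrow and tumor (points are libraries, lines group means, K74R in red left of WT in blue). In MSC, Mcm6 reaches 33.8 CPM per kb in K74R and 7.004 CPM per kb in WT, while Mcm2 is lowest in each panel.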

How the data were processed

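TRIzol extraction and the KAPA mRNA HyperPrep kit were used, per the labels' protocols. The authors deposited a table of raw counts per gene, with library totals of 14067259 to 18923751. Reads were handled with Trimmomatic 0.38, HISAT2 2.1.0 (GRCm38) and featureCounts 1.6.0, per the submitters' processing notes. No source used here gives the strand setting, so reads of the 11 members whose exons overlap a protein-coding gene (10 on the other strand) cannot be told apart from that gene's.

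Identifiers were matched to GENCODE M21. Each tissue was tested alone with R 4.3.3 and edgeR 4.0.16 (filterByExpr, TMM, quasi-likelihood test, Benjamini-Hochberg adjustment over all genes tested). Tissue and interaction contrasts came from a model of all 16 libraries in 6 groups. The scripts were tested on simulated data. Alternatives were relative log expression factors, no filter on low counts, library size alone, DESeq2 1.42.0, limma-voom 3.58.1, all 16 libraries together, the replicate number as a block, and each library left out.

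The members and lists were chosen with earlier results of these data known. The rule gave per-library values for up to 15 members past the threshold, for the smallest-p member of each role in MSC, and for up to 3 genes of each other list in each direction. Other members given with values were chosen after their values were seen. The replicate libraries differed by more than sampling noise. WT tumor column names carry an R, and WT MSC ones read KCF where K74R MSC ones read KLF, both without explanation.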

Additional observations from a re-analysis of the deposited data

Results flagged for a closer look

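The K74R effect differed between tissues by an interaction test in the model of all 16 libraries. That model shares its estimate of the spread across tissues, although MSC replicates differed more than those of bone marrow and tumor. Against bone marrow the effect in MSC was larger for 38 of 41 replication genes, with log2 differences of 2.47 for Mcm6, 2.92 for Mcm10 and 2.12 for Dtl, the 3 of smallest p. Against tumor it was larger for 36 of 41, with log2 differences of 2.29 for Mcm6, 2.19 for Dtl and 2.57 for Clspn, again the 3 of smallest p. Groups of 2 or 3 libraries are too small to single out an outlying library.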

How the results depend on the processing

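All 41 replication genes kept a positive log2 fold change in MSC in each of the 12 alternatives run, and the number called in MSC, 19 in the report, was 32 with no filter on low counts, 31 with DESeq2 and 39 in 1 model of all 16 libraries. Leaving out 1 MSC library at a time gave 0 to 13 calls and a median log2 fold change of 1.12 to 1.46. The mitosis list, 24 of 28 in the report, had 0 calls without K74R library 1. In bone marrow, no filter on low counts and DESeq2 each called 1 gene (Prim2, lower). Over all genes, 484 passed in MSC, against 3063 with no filter, 1909 with DESeq2, 4431 in that model, 253 without WT library 2 and 0 without K74R library 1. In bone marrow 115 passed, against 875 with no filter, 533 with DESeq2, 60 in that model and 11 to 684 with a library left out. In tumor 6 passed, against 810 with no filter, 202 with DESeq2, 0 in that model and 0 to 124 with a library left out. The cause of these shifts was not tested.

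Library size alone moved the median of all genes to 0.17 in WT tumor over WT bone marrow, and members called higher there numbered 4 with relative log expression factors and 7 with library size alone, against 5 in the report. The members called in the tissue contrasts and interactions stayed within 1.5 times the reported counts in every alternative run. Over all genes, the interaction with bone marrow had 3428 calls, against 1938 without K74R MSC library 1, and that with tumor had 1930, against 1110 without K74R MSC library 1 and 3030 without K74R MSC library 2.

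Whether the replicate numbers pair the samples is not known. Deviations of same-numbered libraries from their group mean correlated at -0.18 in MSC, from -0.10 to 0.28 in bone marrow and from -0.05 to 0.05 in tumor. With 2 libraries per genotype the deviations are mirror images, so crossed numbers gave 0.18 in MSC by construction. These values therefore cannot decide whether samples were paired. With the number as a block, 22 members were called in MSC (1135 of all genes), 0 in bone marrow (135 of all genes) and 0 in tumor (13 of all genes). In the interactions with bone marrow and tumor, 37 and 31 were called (2638 and 1357 of all genes). For WT MSC and WT tumor against WT bone marrow, 41 and 32 were called (10749 and 10823 of all genes). With this block, those tissue contrasts compared a single replicate number per tissue and not the tissue means. A crossed pairing of the MSC libraries, chosen after seeing the data, called 31 members (1943 of all genes).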

Other observations

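In bone marrow and tumor, the mitosis, E2F and G1/S control and other replication factor lists had 0 calls by edgeR. By unadjusted p under 0.05, other replication factors had 2 higher and 4 lower of 41 in bone marrow and 1 higher and 0 lower in tumor, and E2F and G1/S control genes had 3 higher and 1 lower in bone marrow and 1 higher and 2 lower in tumor. Over all genes, 9.8% were higher and 7.99% lower by that rule in bone marrow, and 5.05% higher and 6.19% lower in tumor. In bone marrow the mitosis list had a median log2 fold change of -0.04 over 28 genes, with 0 at an unadjusted p under 0.05 (1, higher, in tumor), and the gene of smallest p was Ccnb1, the mitotic cyclin, with 265, 255 and 215 CPM in K74R, against 286, 259 and 308 CPM in WT. Among 29 E2F and G1/S control genes there, Myb, a progenitor transcription factor, had the smallest p, with 293, 357 and 387 CPM in K74R, against 242, 266 and 225 CPM in WT (log2 0.50, adjusted p = 0.0864). In tumors Ccne2, the cyclin called in MSC, had the smallest p of that list, with 92.2, 98.0 and 102 CPM in K74R, against 73.6, 79.0 and 86.4 CPM in WT (log2 0.29, adjusted p = 0.33). The hematopoietic list had no call in tumors, with 6 of 11 genes lower and 0 higher by unadjusted p under 0.05, and Adgre1, a macrophage surface receptor, had 64.1, 60.9 and 41.9 CPM in K74R, against 101, 92.8 and 96.9 CPM in WT (log2 -0.80, adjusted p = 0.194).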
